A study of Mus musculus with 8 samples.

Results

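The 8 pluripotency genes Pou5f1, Nanog, Zfp42, Prdm14, Lin28a, Sall4, Klf4 and Myc were examined in a pooled list of genomic regions from a mouse glioma methylation study. Every listed region that shared at least 1 bp with 1 of these genes, or with the 5000 bp to either side, was taken. This gave 73 regions of 220894 in all, with none shared between the 8 genes. The regions were taken by gene name and position and not by score, but the genes themselves were chosen with earlier results of these data known.

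Genomic DNA of 8 mouse cell lines was captured with a mouse methylation kit and sequenced after bisulfite treatment. Of these, 4 were IDH mutant lines from brain tumours and 2 were IDH wild-type lines from RAS gliomas. The other 2 were IDH wild-type astrocyte lines that had been immortalized, and 1 of them also expresses exogenous wild-type IDH1. Mutant IDH1 makes a metabolite that inhibits the enzymes that remove DNA methylation. All lines came from mice carrying N::TVA, a transgene for the receptor that lets avian retroviral vectors into cells, and Cdkn2alox/lox on a mixed C57Bl/6, 129 and FVB/n background. The mice behind the IDH mutant tumour lines and the astrocyte lines were also Atrxlox/lox and Ptenlox/lox, and those behind the IDH wild-type tumour lines were not, so IDH status and genotype cannot be told apart between the tumour lines. The names of the astrocyte lines include PDGFA. No line is a pluripotent cell. The deposited list holds 1 score per region for all lines together. It holds no methylation level and no value of a single line, so levels in mutant and wild-type lines, and any replicate error, were not analysed here. What follows describes where these genes were covered by listed regions, and the authors' score of those regions.

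The core pluripotency factors keep embryonic stem cells undifferentiated and are switched off when cells take on a fate. OCT4, the product of Pou5f1, and NANOG bind DNA together with SOX2 and act on each other's genes. Pou5f1 and Nanog have promoters with few CpG dinucleotides, and in somatic cells these promoters are known to be methylated and silent. CpG-rich promoters lie in CpG islands, which mostly stay unmethylated in somatic cells whether or not the gene is active. Klf4 and Myc, which with Pou5f1 and SOX2 reprogram somatic cells, are active in many somatic tissues.

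Promoter sequences show the CpG content in this contrast, for Klf4 alone on the CpG-rich side, and nothing of methylation or activity. RefSeq promoter windows on GRCm38.p6, the assembly that mm10 names, were matched for 5 of the 8 genes. Each window runs from 250 bases before to 50 bases after the transcription start. Those of Pou5f1, Nanog, Zfp42 and Klf4 are shown 5′ to 3′ on the strand of the gene, with every CpG in capitals, because their coverage differs from one another. They lie at chr17:35505782-35506081 on the plus strand, chr6:122707239-122707538 on the plus strand, chr8:43306960-43307259 on the minus strand and chr4:55532426-55532725 on the minus strand, in that order.
Pou5f1: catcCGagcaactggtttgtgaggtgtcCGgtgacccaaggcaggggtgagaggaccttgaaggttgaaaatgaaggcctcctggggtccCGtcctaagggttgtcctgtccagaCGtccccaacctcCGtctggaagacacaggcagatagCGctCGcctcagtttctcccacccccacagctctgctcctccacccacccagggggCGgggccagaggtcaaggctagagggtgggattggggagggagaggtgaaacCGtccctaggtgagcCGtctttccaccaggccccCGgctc
Nanog: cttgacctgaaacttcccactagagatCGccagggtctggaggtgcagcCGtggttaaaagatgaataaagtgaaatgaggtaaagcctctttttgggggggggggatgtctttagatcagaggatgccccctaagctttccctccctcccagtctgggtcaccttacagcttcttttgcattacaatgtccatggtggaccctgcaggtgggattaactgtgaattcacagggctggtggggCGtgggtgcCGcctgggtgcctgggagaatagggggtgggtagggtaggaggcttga
Zfp42: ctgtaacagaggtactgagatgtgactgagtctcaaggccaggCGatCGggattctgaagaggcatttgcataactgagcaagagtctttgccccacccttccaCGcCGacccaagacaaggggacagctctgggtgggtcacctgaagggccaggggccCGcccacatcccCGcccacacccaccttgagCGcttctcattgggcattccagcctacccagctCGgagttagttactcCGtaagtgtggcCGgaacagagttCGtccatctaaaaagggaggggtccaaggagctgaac
Klf4: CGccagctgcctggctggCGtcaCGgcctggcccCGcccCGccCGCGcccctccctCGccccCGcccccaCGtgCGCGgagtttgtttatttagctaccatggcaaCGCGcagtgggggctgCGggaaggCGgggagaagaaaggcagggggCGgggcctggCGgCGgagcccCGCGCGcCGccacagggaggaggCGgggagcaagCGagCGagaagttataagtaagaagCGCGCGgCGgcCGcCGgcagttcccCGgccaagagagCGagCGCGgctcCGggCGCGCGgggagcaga

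The Klf4 window held 40 CpGs, 0.97 times the number expected from its C and G content, with 74.3% GC. The Pou5f1 window held 11 CpGs at an observed to expected ratio of 0.37, although its GC content was 62.7%. Nanog was the poorest, with 4 CpGs and a ratio of 0.19 at 54.3% GC. Zfp42, which encodes the zinc finger protein REX1, a marker of undifferentiated stem cells, had 11 CpGs and a ratio of 0.44. Lin28a, which encodes an RNA-binding protein that blocks maturation of let-7 microRNAs, had 10 CpGs and a ratio of 0.35. With CpG-poor set as a ratio under 0.48 and CpG-rich as a ratio of at least 0.75 with at least 55% GC, 4 of the 5 genes were CpG-poor and Klf4 alone was CpG-rich. Among the 17491 protein-coding genes with a promoter window, the ratio of Klf4 was higher than in 89.9% and that of Nanog higher than in 22.0%. Myc, Sall4 and Prdm14 had no promoter in the table.

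All 4 CpG-poor promoters shared bases with a listed region, and the CpG-rich promoter of Klf4 shared none. Over all 17491 genes, 58.2% of promoter windows shared at least 1 bp with a region. The share was 30.4% of 7648 CpG-poor promoters, 84.5% of 4592 promoters of intermediate CpG content and 75.8% of 5251 CpG-rich promoters. At low ratios the share rose with the CpG ratio, in bins 0.1 wide. It was 19.3% of genes in the bin of the ratio that holds Nanog, 48.7% in the bin of Lin28a and Pou5f1, and 68.1% in the bin of Zfp42. At its own ratio Nanog was thus on the less common side, Lin28a and Pou5f1 stood where about as many genes have a region as lack one, and Zfp42 was on the more common side. In the bin of Klf4, 76.7% of genes have a region, so Klf4 was on the less common side there as in its class. The counts are of 5 genes and were not tested.

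The Nanog promoter was covered over all 300 bases, with its 4 CpGs, by a region of 910 bp (chr6:122706871-122707780) that ran from 618 bp before to 291 bp after the start. Its score was 595, higher than 26.9% of the regions within 50 bp of the same width. This percentile is used below because wider regions have higher scores. Zfp42 was also covered over all 300 bases and all 11 CpGs, by a region of 840 bp (chr8:43306711-43307550) with a score of 883, at the 59.6th percentile for its width. Of CpG-poor promoters, 16.3% were covered whole, and Nanog and Zfp42 were both among these.

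Pou5f1 and Lin28a were covered in part. At Pou5f1 a region of 490 bp (chr17:35505381-35505870) with a score of 276 ended 162 bp before the start and took in 89 bases and 2 of the 11 CpGs of the window. The start itself lay in a gap of 400 bp between this region and the next, which opened 239 bp into the gene. At Lin28a a region of 1000 bp (chr4:134017881-134018880) with a score of 366 reached 64 bp beyond the start and took in 114 bases and 7 of 10 CpGs. For their widths these scores were low, at the 8.66th percentile for Pou5f1 and the 4.58th for Lin28a. A second RefSeq start of Pou5f1, at position 35508807 inside the gene, lay in a region of 1640 bp with a score of 503, at the 6.61st percentile.

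At Klf4 the start lay in a gap of 1150 bp (chr4:55532221-55533370). The nearest region began 255 bp into the gene (460 bp wide, score 523), and the nearest before the start was 896 bp away (280 bp wide, score 200). None of the 40 CpGs of the promoter lay in a region. Of the 5251 CpG-rich promoters, 24.2% shared no base with a region, and 12.4% had their start in a gap at least as long.

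**Figure D1:**
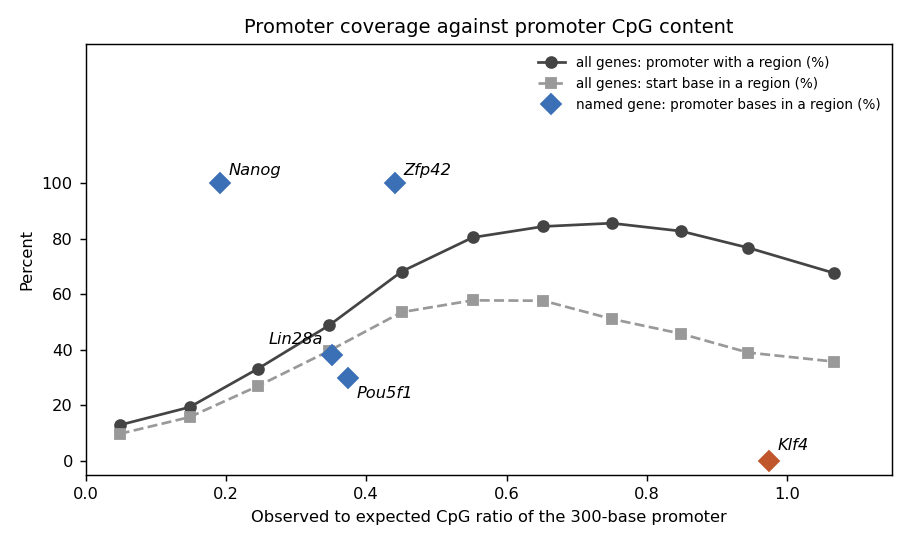
Observed to expected CpG ratio of the 300-base promoter (x axis) against percent (y axis). Circles give the share of all genes in each bin of the ratio with a region in the promoter, squares the share with the start base in a region, and diamonds the share of promoter bases in a region for the named genes (blue CpG-poor, orange CpG-rich). Nanog and Zfp42 sit at 100% where the circles stand at 19.3% and 68.1%, and Klf4 sits at 0 where they stand at 76.7%. Circles count genes and diamonds count bases, so they are unlike measures. Over all CpG-poor and CpG-rich promoters, 24.1% and 49.0% of bases were covered.

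The base at the start itself lay in a region in 3 of the 5 genes, Nanog, Zfp42 and Lin28a, against 37.5% of all genes. Over all genes this share was 24.3% for CpG-poor, 60.4% for intermediate and 36.7% for CpG-rich promoters. The Lin28a start used, at position 134018816, lay inside the annotated gene. The annotated 5′ end of Lin28a, at 134019196, was outside any region, in a gap of 590 bp. Coverage along CpG-rich genes had 2 shoulders and a dip. It stood at 71.0% of genes 400 bp before the start, fell to 36.0% at 100 bp past it, and returned to 64.4% at 700 bp past it. CpG-poor genes had a single low peak of 24.4% at 100 bp before the start. From 4000 to 5000 bp away, the mean was 10.4% for CpG-rich and 6.55% for CpG-poor genes. Klf4 lacked the upstream shoulder as well, since its gap covered the position 400 bp before the start, while the shoulder inside the gene was present. The kit's target list was not used here, so targets that were left out and sequence that was captured or read poorly cannot be told apart.

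**Figure D2:**
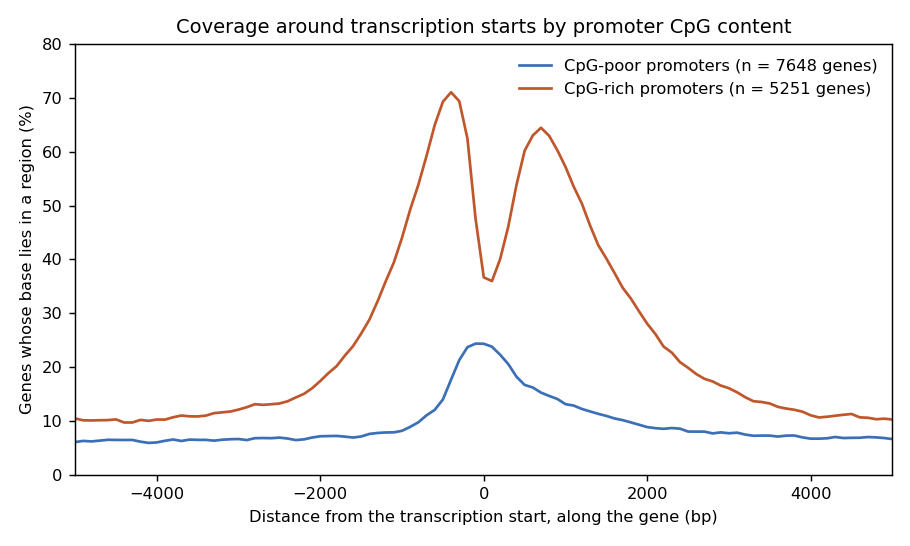
Distance from the transcription start along the gene in bp (x axis) against the percent of genes whose base at that distance lies in a region (y axis), for 7648 CpG-poor (blue) and 5251 CpG-rich (orange) promoters. The orange line stands at 36.7% at the start and dips to 36.0% at 100 bp past it, between shoulders of 71.0% and 64.4%, and the blue line peaks at 24.4%.

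Short sequence matches to the factors of the network were searched in the same windows on both strands. The octamer core TTTGCAT, letters of the POU factor site, stood 75 to 69 bases before the start in Nanog and 185 to 179 bases before it in Zfp42, and 4.17% of all promoters hold it. In Nanog it was followed by ACAATG, the core letters of a SOX site, at 67 to 62 bases before the start, and 11.2% of all promoters hold those letters. ACAATG was also found in Lin28a, on the reverse strand at 96 to 91 bases before the start, outside the region there. The Nanog and Zfp42 stretches are shown with the matched letters in capitals, because both lay wholly in listed regions (chr6:122707409-122707432 on the plus strand and chr8:43307183-43307199 on the minus strand).
Nanog: cttctTTTGCATtACAATGtccat
Zfp42: aggcaTTTGCATaactg

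Neither TTTGCAT nor ACAATG was found in the Klf4 window or in that of the outermost Pou5f1 start. The window of the second Pou5f1 start, which was not part of this search, does hold ACAATG. The GC box letters GGGCGG, the core of the SP1 site, are held by 46.3% of promoters. They were found at 4 positions in Klf4, of which 2 overlap by 1 base, at 2 in Zfp42, at 1 each in Pou5f1 and Lin28a, and not in Nanog. The nuclear receptor half-site AGGTCA, held by 14.5% of promoters, was found in Pou5f1 at 33 to 28 bases before the start and in Nanog at 248 to 243 bases before it. These shares are over all promoters and were not split by CpG content, so they are not the rates of either class. A match describes letters only.

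Across the whole windows, the 8 genes were covered by between 17.3% (Prdm14) and 59.6% (Pou5f1) of their bases. The 7635 protein-coding genes of 4000 to 20000 bp, which span the lengths of the 8 genes, had a median of 13.5% and quartiles of 6.70% and 21.6%. Pou5f1 and Myc, at 59.6% and 53.5%, stood above 99.8% and 99.3% of these genes. The Pou5f1 share includes a region of 2260 bp in the neighbouring gene Tcf19. Klf4 had 34.5% covered, Nanog 31.0%, Zfp42 27.0%, Sall4 26.5% and Lin28a 24.5%. All 8 were thus above the median of genes of like length, and all except Prdm14 were above the upper quartile. Length was not matched within the 4000 to 20000 bp. Pou5f1, Myc and Klf4, the most covered of the 8, were also the shortest, at 4746, 5021 and 5339 bp. The number of regions ran from 7 at Nanog to 12 at Lin28a, against a median of 5.

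The genes known for CpG-poor promoters (Pou5f1 and Nanog) and those known for CpG-rich ones (Klf4, Myc and Sall4) overlapped in coverage. The mean covered share was 45.3% for the former and 38.1% for the latter, a difference of 7.19 percentage points. Pou5f1 was above all of the CpG-rich genes, and Nanog was below both Klf4 and Myc. The Pou5f1 share counts a region of 2260 bp that lies in the neighbouring gene Tcf19. Without that region, Pou5f1 would stand below Myc and the former mean would fall below the latter. Regions overlapping Gm32362, Gm12506 and Gm14261, at Pou5f1, Klf4 and Sall4, were counted as well. The genes also differ in length, from 4746 bp at Pou5f1 to 18870 bp at Sall4. Grouping by the counted CpG content of the promoter gave 35.5% for 4 CpG-poor genes and 34.5% for Klf4, a difference of 1.06 points. This difference would also change sign without the Tcf19 region. With 2 genes against 3, no two-sided exact permutation p could fall under 0.2, and genes are not replicates, so no test was made.

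**Figure D3:**
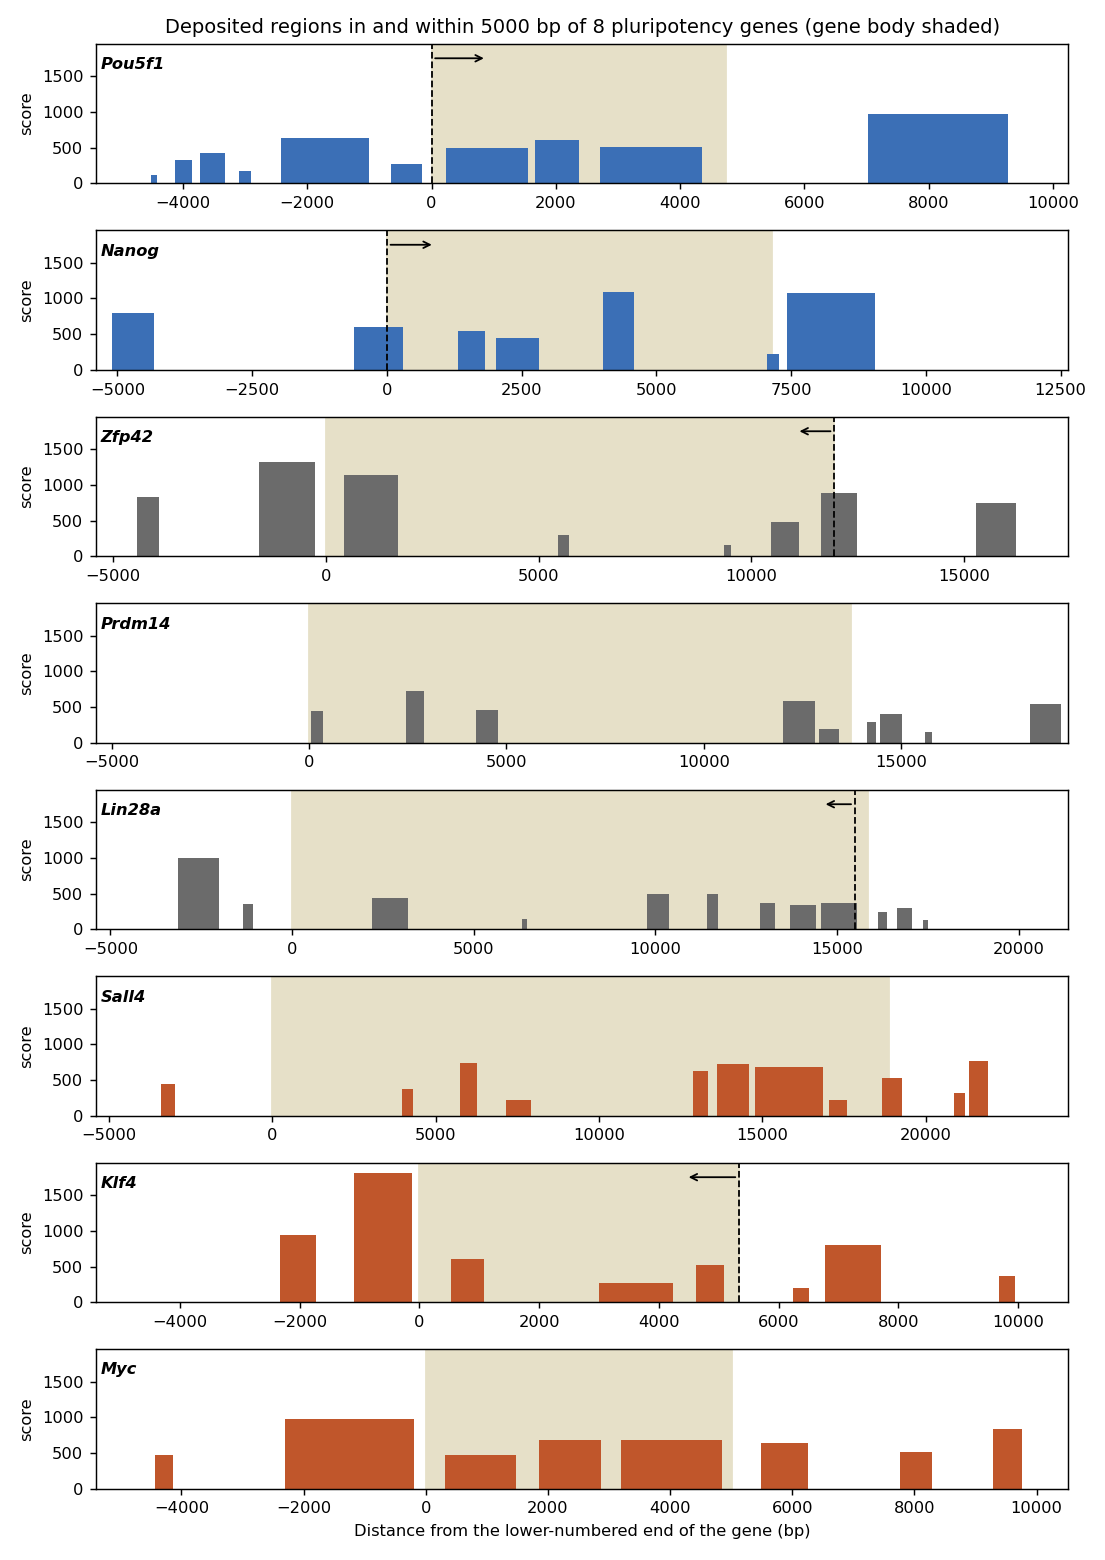
Distance from the lower-numbered end of each gene in bp (x axis) against the authors' score (y axis, unitless), with 1 bar per region drawn to its width. Shading marks the gene, a dashed line and arrow the outermost RefSeq start and its direction where known, and colour the genes known for CpG-poor (blue) and CpG-rich (orange) promoters and the rest (grey). The highest bar, 1808, stands below Klf4, and the dashed line of Klf4 crosses no bar.

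Pou5f1 (chromosome 17, 35506032 to 35510777) had 10 regions with scores from 111 to 965 and a median of 460. The 3 regions inside the gene scored 495, 602 and 503 and together covered 77.1% of it. Upstream, where enhancers of the gene are known to lie, a region of 1420 bp from 2421 to 1002 bp before the start scored 641. This region, the 4 before it and the 1 at the promoter all overlap the non-coding RNA gene Gm32362. The highest score, 965, belonged to a region of 2260 bp in the neighbouring gene Tcf19 and not to Pou5f1. For their widths the 3 regions inside the gene were at the 9.05th, 32.8th and 6.61st percentiles.

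Nanog (chromosome 6, 122707489 to 122714633), the homeodomain factor of the naive state, had 7 regions with scores from 223 to 1092 and a median of 595. No other annotated gene lay in its window. The highest, 1092, belonged to a region of 570 bp from 4012 to 4581 bp past the start, at the 86.5th percentile for its width. The next region of the gene towards the start, 800 bp wide, scored 447 and was at the 12.7th percentile. A region of 1640 bp beyond the far end of the gene scored 1080. High and low scores thus stood side by side within a gene of 7145 bp.

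Zfp42 (chromosome 8, 43295067 to 43307009) had 8 regions with scores from 156 to 1315, and its median of 788 was the highest of the 8 genes. It was above 85.4% of the genes of like length. Scores were highest around the far end of the gene, at 1135 inside it (1260 bp wide) and 1315 just beyond it (1310 bp wide). Of its 8 regions, 6 were above the 50th percentile for their width, the most of any of the 8 genes.

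Prdm14 (chromosome 1, 13113428 to 13127163), a PR domain protein of stem cells and germ cell precursors, was the most thinly covered. Its 9 regions scored from 151 to 730 with a median of 452, and a stretch of 7220 bp inside the gene held none. Regions stood at both sides of its higher-numbered end, which itself lay in a gap of 700 bp. The region below that gap, 500 bp wide, scored 187, at the 1.26th percentile.

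Lin28a (chromosome 4, 134003330 to 134019196) had the most regions, 12, and the lowest median score, 359, with a range from 136 to 1003. The highest lay in the neighbouring gene Dhdds. The region over the start and the next one into the gene, 1000 and 710 bp wide, scored 366 and 345, at the 4.58th and 6.08th percentiles. Its lower-numbered end lay in a gap of 3280 bp, and its higher-numbered end, the 5′ one, in a gap of 590 bp.

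Sall4 (chromosome 2, 168748332 to 168767201), a zinc finger factor that works with OCT4, had 11 regions with scores from 218 to 768 and a median of 522. Its higher-numbered end lay in a region of 630 bp with a score of 522, which also overlaps the non-coding RNA gene Gm14261. Below that end, 4 regions of 480 to 2060 bp scored 628, 728, 688 and 225 in order of position. Around its lower-numbered end a stretch of 6960 bp held no region. A region of 750 bp in the gene scored 218, at the 0.573rd percentile.

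Klf4 (chromosome 4, 55527137 to 55532475) had 8 regions with scores from 200 to 1808 and a median of 565, the widest range of the 8 genes. The 1808 belonged to a region of 960 bp that ended 127 bp beyond the far end of the gene, at the 95.2nd percentile. Inside the gene a region of 1250 bp from 1095 to 2344 bp past the start scored 272, at the 0.271st percentile, the lowest of the 73. The highest and the lowest percentile of the 73 regions thus both belonged to this gene.

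Myc (chromosome 15, 61985341 to 61990361), a basic helix-loop-helix factor that drives growth, had 8 regions with scores from 475 to 977 and a median of 660. Its lowest score was higher than the lowest of every other gene here. The 977 belonged to a region of 2120 bp that ended 191 bp short of the lower-numbered end. That end lay in a gap of 510 bp and the higher-numbered end in a gap of 640 bp. Inside the gene 3 regions scored 475, 688 and 682 and covered 76.5% of it.

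Regions inside the 8 genes had lower scores for their width than regions beside them. A region that shared at least 1 bp with the gene was counted as inside. Regions across a gene end were thus counted too, such as that at the Nanog start, with 292 of its 910 bp in the gene. The 39 inside had a median percentile of 28.9 with 12 (30.8%) above the 50th. The 34 outside had a median of 46.9 with 16 (47.1%) above it. In raw score the medians were 495 and 494, and the regions inside were wider (630 against 505 bp). The median percentile was lower inside than outside in each of the 8 genes, with the widest gap at Lin28a (27.5 against 57.6) and the narrowest at Sall4 (34.8 against 41.1). This order also held in 58.3% of the 5660 genes of like length with regions in both places. Over such genes the medians were 39.1 for 20766 regions inside and 48.3 for 12307 outside, with 39.3% and 48.2% above the 50th. Regions are not replicates and no test was made.

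**Figure D4:**
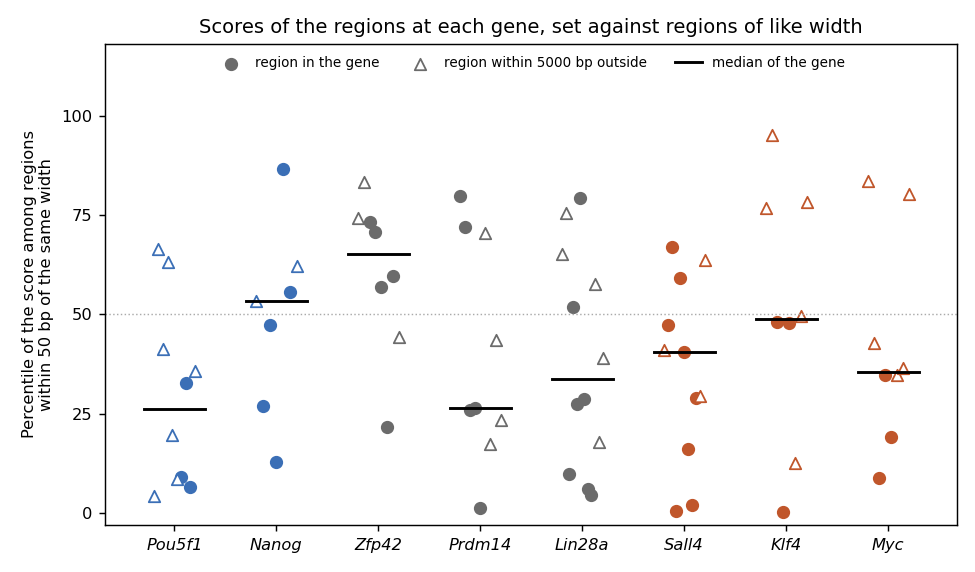
Percentile of the score for the width of the region (y axis), ranked among regions within 50 bp of that width, for the 8 genes (x axis). Filled circles are regions in the gene, open triangles regions within 5000 bp outside, and bars the median of the gene, coloured blue for Pou5f1 and Nanog, orange for Sall4, Klf4 and Myc and grey for the rest. The medians run from 26.2 at Pou5f1 to 65.1 at Zfp42, and the points of every gene overlap those of the others.

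Over all 73 regions the median score was 495, against 462 for the whole list, with a median width of 570 against 460 bp. For their width they had a median percentile of 41.1, with 28 (38.4%) above the 50th. Over genes of like length, 39.3% of regions inside and 48.2% of regions outside were above it. Under the 5th percentile lay 6 regions (8.22%), of which 5 were inside Prdm14, Lin28a, Sall4 or Klf4. By construction about 5% of the whole list lies there, and the share over genes of like length was not counted. The 17 regions of Pou5f1 and Nanog had a median percentile of 35.8 and the 27 of Klf4, Myc and Sall4 a median of 41.1. The spread within each gene was larger than this difference. At Klf4 alone the percentiles ran from 0.271 to 95.2.

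Processed copies of some of these genes lie elsewhere in the genome and can share reads with them. The gene table names 7 such pseudogenes of Pou5f1, of which 2 held a region, Pou5f1-rs4 with a score of 360 and Pou5f1-rs8 with 123. Neither of the 2 Nanog pseudogenes held one. The single Zfp42 pseudogene, Zfp42-ps1, held a region of 1180 bp with a score of 1083. The sources used here do not say how reads that match both a gene and its copy were placed. The scores of Pou5f1, Nanog and Zfp42 are uncertain to that extent.

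Other genes of the pluripotency network were read the same way. All 36 listed genes matched a protein-coding gene, with a median of 9.5 regions, a median covered share of 23.4% and a median of the median scores of 503. A promoter window was found for 25, and 17 of them (68%) shared bases with a region, beside the 58.2% of all genes. By class these were 3 of 7 CpG-poor, 9 of 11 intermediate and 5 of 7 CpG-rich promoters.

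In raw score, which rises with the width of the region, the highest at a promoter belonged to Il6st, the shared receptor subunit of LIF signalling, with 1440, Nr5a2 with 1185, the demethylase gene Tet1 with 1181, Tcl1 with 803 and Stat3, the transcription factor downstream of LIF, with 758. The lowest raw scores belonged to Sox2, the partner of OCT4, with 117, the methyltransferase gene Dnmt3b with 146, Utf1 with 170, Trim71 with 200 and Jarid2 with 203. For width the order differed. Of these 5, Jarid2 was lowest, at the 0.381st percentile, followed by Trim71 (3.38), Utf1 (9.21), Dnmt3b (9.85) and Sox2 (14.6). Klf2 (9.50) and Tfcp2l1 (11.8), named after their values were seen, were also below Sox2. Among the 5 high raw scores, Il6st was at the 92.8th percentile and Tcl1 at the 31.4th. Over all genes with a region at the promoter, the median percentile was 37.6 for CpG-poor, 35.6 for intermediate and 37.4 for CpG-rich promoters. The Sox2 region took in 15.3% of its CpG-rich promoter and missed the start. The regions of Dnmt3b, Il6st, Tet1 and Stat3 also missed the start, and those of the other genes named for their scores took it in. No region lay in the promoter window of Dnmt3l, Foxd3, Lif, Lifr, Lin28b, Mycn, Nodal or Otx2. Foxd3 and Lifr are CpG-rich, as is Klf4, and Dnmt3l, Lif, Nodal and Otx2 are CpG-poor. Dppa2, Dppa3, Dppa4, Dppa5a, Fbxo15, Gdf3, Klf5, Lefty1, Lefty2 and Tbx3 were among those with no promoter in the table.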

How the data were processed

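Genomic DNA of 8 lines was captured with Agilent's mouse kit for methylation sequencing, per the labels' protocols. Novoalign 3.7.1, Picard and the build mm10 are named in the submitters' processing notes. For the region caller and the methylation caller, the sources used here give nothing. For any filter they give only the name of the list, which holds min10 and targets and is not explained. The score deposited by the authors is 1 whole number of at least 100 per region for the whole series. What it measures is not stated, so it only ranks and describes regions. Depth per line is unknown and no interval could be given.

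Regions were joined to RefSeq genes and promoter windows of GRCm38.p6 with a minimum overlap of 1 bp, using Python 3.11.15 and pandas 2.3.3, with coordinates counted from 1. The gene table gives no strand or exons, so exons, introns and UTRs were not assigned, and Myc, Sall4 and Prdm14 are described by both gene ends. The outermost start with a promoter window stood for each gene, and the annotated gene can reach beyond it, as at Lin28a. Overlap and ranking steps were tested on simulated data. The 8 genes were all named. The network list, of which the 5 highest and 5 lowest raw scores at a promoter and those without a region are named (1 other listed gene is not reported here), and the 8 genes were chosen with earlier results of these data known. Classes of CpG content and gene length were set after the data were examined.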

Additional observations from a re-analysis of the deposited data

How the results depend on the processing

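With a window of 1000 or 10000 bp in place of 5000 bp, the 8 genes held 50 or 95 regions in place of 73, and the median over the genes of their median score was 547.25 or 531.75 in place of 543.25. With scores of at least 200 only, 66 regions were kept and that median was the same, and with region midpoints 73 were counted. Promoters with a region numbered 4 of 5 genes, 5 with 1000 bp to each side of the start (Klf4 joins), 3 with an overlap of at least 100 bp (Pou5f1 drops out) and 4 with scores of at least 200. The median percentile for width over the regions at these 4 promoters was 17.8, 18.0 with widths within 100 bp and 13.8 within the same chromosome. Grouping by counted CpG content moved the difference in covered share from 7.19 to 1.06 points, both with the Tcf19 region counted at Pou5f1. Chosen after seeing the data, a ratio of 0.6 with no GC limit moved the drop in coverage from 400 bp before the start to the start itself over CpG-rich genes from 34.4 to 23.1 points, and scores of at least 200 gave 34.0. No paired analysis was possible because the list has no value of a single line. Depth per line is unknown, so a gap in the list is not shown to be unread sequence.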
